A study of Homo sapiens with 2 samples.

Results

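The regions described here are replicate 1 peaks (antibody batch 1) outside chromosome 6 that had no overlapping peak in the replicate 2 list (antibody batch 3). They are the rows of the replicate 1 peak list on chromosomes 1 to 22, chromosome 6 left out, that overlap no row of the replicate 2 list by 1 bp. There were 348 such replicate 1-only peaks, of 770 replicate 1 peaks on the same 21 chromosomes, 910 in the whole replicate 1 list and 5556 in both lists together. The other 422 replicate 1 peaks on these chromosomes overlapped a replicate 2 peak and are called shared. The regions were chosen by the measured positions of the peaks in both lists, so their lack of overlap is a description and was not tested.

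Both samples were untreated K562 cells, an established human chronic myelogenous leukaemia line, taken through chromatin immunoprecipitation and sequencing (ChIP-seq). The antibodies were rabbit polyclonal antibodies, made in-house, to the C-terminal end of ASH1. Batch 1 of the antibody was used for replicate 1 and batch 3 for replicate 2, and effects of the batch and of the individual sample cannot be told apart. There was 1 sample per batch, no second condition and no control library among the files used here, so no p-value is given and peaks are not treated as replicates. Intervals are 95% intervals that cover counting error over peaks only, and neighbouring peaks are not independent.

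ASH1 (gene symbol ASH1L) is a large SET-domain protein of the trithorax group, the family of chromatin proteins that keeps developmental genes active and acts against Polycomb silencing. It methylates a lysine in the tail of histone H3 and is known for binding in and near active genes. Cytogenetic bands that stain lightly with Giemsa are in general gene-rich and GC-rich, and the darkest bands are gene-poor. Peaks were placed in bands of the hg19 assembly by their midpoint and were not assigned to genes, since the gene table used here has another build. No genome of the hg19 build was used, so the bases under the peaks are not shown.

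The replicate 1-only peaks were low-scoring. The authors' peak score, which by its form is a scaled negative log10 of a p-value, had a median of 56.2 over the 348 replicate 1-only peaks (interval 55.3 to 57.4, quartiles 52.5 and 62.5) and 74.9 over the 422 shared peaks (70.3 to 78.5, quartiles 58.7 and 107.6). Scores started at 50.03 in the replicate 1 list and at 70.02 in the replicate 2 list. Of the replicate 1-only peaks, 298 (85.6%, 81.5 to 89.1%) scored below 70, a range in which the replicate 2 list holds no peak. Among shared peaks 187 scored below 70 (44.3%, 39.5 to 49.2%). Only 6 replicate 1-only peaks reached a score of 100, against 118 shared peaks.

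The 3 replicate 1-only peaks nearest to a replicate 2 peak were separated from it by 39 bp in 18q21.33, 114 bp in 9q34.3 and 223 bp in 20q13.32. Their scores were 52.08, 53.21 and 51.37, and the replicate 2 peaks beside them scored 902.55, 70.61 and 406.32. The 18q21.33 peak (chromosome 18, 60864460 to 60864911) also lay 0.1 kb from a shared replicate 1 peak, so it sat on the flank of a site present in both lists. The 3 shared peaks with the smallest overlap, just outside the rule, overlapped by 155 bp in 11q25, 357 bp in 3p22.3 and 433 bp in 21p11.1, with replicate 1 scores of 53.92, 53.11 and 118.71. The 21p11.1 peak was only 439 bp wide, so nearly all of it was overlapped.

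Chromosome 5 held the most replicate 1-only peaks. It carried 68 of the 348 (19.5%, 15.5 to 24.1%), against 28 of the 422 shared peaks (6.64%, 4.45 to 9.45%) and 242 of 4224 replicate 2 peaks (5.73%). The chromosome makes up 6.68% of the length considered. Seen from the chromosome, 70.8% of its 96 replicate 1 peaks were not shared (60.7 to 79.7%), against 348 of 770 over the 21 chromosomes. Chromosome 1 followed with 42 replicate 1-only and 28 shared peaks. Chromosome 16 had the opposite balance, with 15 replicate 1-only and 39 shared peaks, and chromosome 9 had 19 and 37. Chromosome 21 had 0 replicate 1-only peaks, with all 9 of its replicate 1 peaks shared; 0 of 9 allows a share of up to 33.6%. On chromosome 1 the short arm held 8 replicate 1-only peaks and the long arm 34, in arms of nearly equal length. The shared peaks were divided in the same direction, 6 and 22. The part of replicate 1 peaks that was not shared was 57.1% on the short arm and 60.7% on the long arm.

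**Figure D1:**
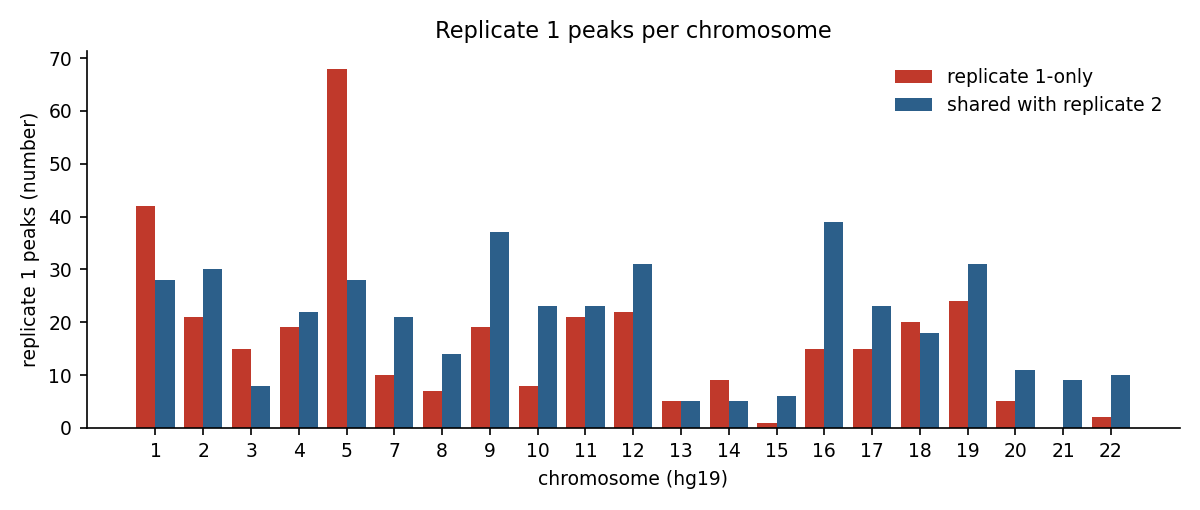
Number of replicate 1 peaks on each chromosome (hg19), with the replicate 1-only peaks as the left bar and the shared peaks as the right bar of each pair. Chromosome 5 stands highest among the replicate 1-only bars with 68 peaks, and chromosome 16 highest among the shared bars with 39.

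Per megabase (Mb), 18p was the arm most densely set with replicate 1-only peaks. It held 16 in 17.2 Mb, or 0.930 per Mb, against 0.128 per Mb over all 21 chromosomes. The short arm of chromosome 5 came next with 35 peaks, 0.723 per Mb, then 19p with 16 peaks, 0.604 per Mb. These arms were dense in shared peaks too, with 0.349 per Mb in 18p, 0.372 in 5p and 0.642 in 19p. Over all 21 chromosomes the shared peaks had 0.156 per Mb. Of the replicate 1 peaks, 72.7% were not shared in 18p (49.8 to 89.3%), 66.0% in 5p (51.7 to 78.5%) and 48.5% in 19p (30.8 to 66.5%). In 5q, with 0.249 replicate 1-only peaks per Mb, 76.7% were not shared (61.4 to 88.2%), so these 3 arms were not set apart by that share. In 18p there were also 6 shared replicate 1 peaks and 36 replicate 2 peaks. The long arm of chromosome 18 differed in balance, with 4 replicate 1-only and 12 shared peaks. Copy number was not measured, and its part in any density given here was not tested.

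The 348 peaks fell in 180 cytogenetic bands. Of these, 110 bands held 1 peak each and 35 held 3 or more, and those 35 bands carried 168 peaks (48.3%). The 10 bands with the most replicate 1-only peaks were 5p14.3, 5p15.2 and 5q21.3 with 10 each, 19p13.2 with 9, 18p11.32, 5p13.3 and 5q32 with 7 each, and 14q12, 18p11.31 and 19p13.3 with 6 each. Together they held 78 replicate 1-only peaks (22.4%), 17 shared replicate 1 peaks and 156 replicate 2 peaks. The 10 fullest bands of the shared peaks held nearly the same share of their own list, 22.7%, and the 2 shares were close.

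In 5 of the 10 (5p14.3, 5p15.2, 5p13.3, 5q32 and 14q12) no replicate 1 peak was shared. In 5p14.3, a dark-staining band that carries the cadherin genes CDH12 and CDH18, the replicate 2 list had 1 peak in 4.9 Mb. In 5p15.2, which carries TRIO and CTNND2, it had 17, none of which overlapped any of the 10 replicate 1 peaks. Lack of overlap was usual for replicate 2 peaks, since the 21 chromosomes held 4224 of them and 422 shared replicate 1 peaks. In 19p13.3 and 19p13.2, bands of the gene-dense chromosome 19, the replicate 2 list had 60 and 37 peaks, and 7 replicate 1 peaks were shared in each band. Over all bands, 186 of the 348 peaks (53.4%) lay in a band with no shared replicate 1 peak, and 16 (4.60%) in a band with no replicate 2 peak. A replicate 1-only peak occurred in 180 bands, a shared peak in 190 and both kinds in 80. Bands with only 1 kind were thus common for the shared peaks too.

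**Figure D2:**
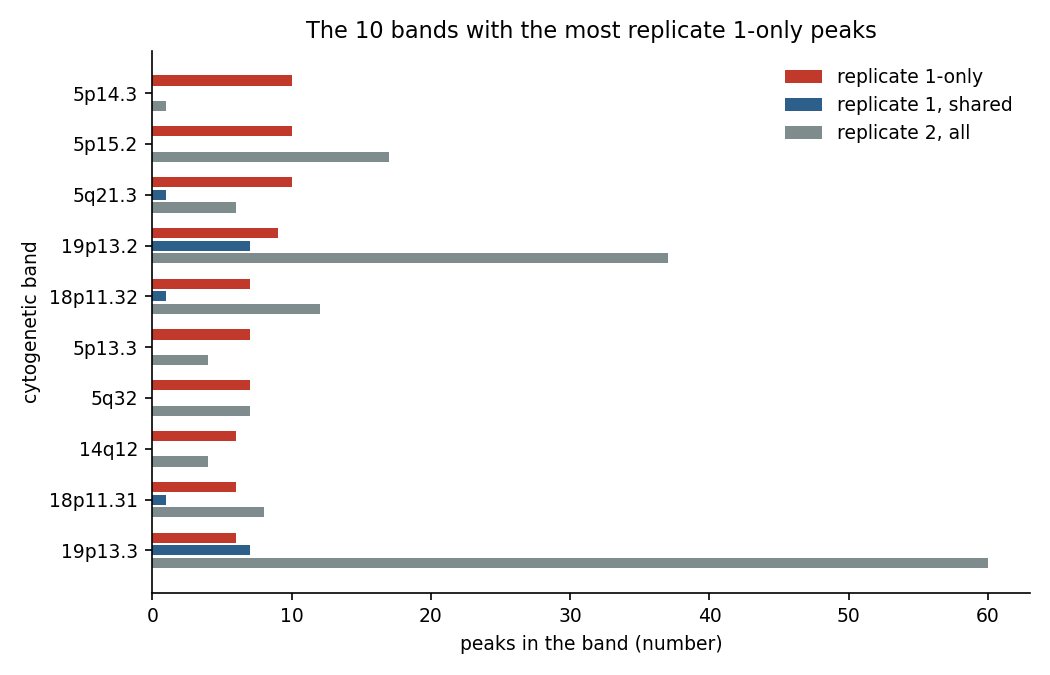
Number of peaks in each of the 10 cytogenetic bands with the most replicate 1-only peaks; from top to bottom in each band the bars give replicate 1-only peaks, shared replicate 1 peaks and all replicate 2 peaks. In 5p14.3 there were 10 replicate 1-only peaks and 1 replicate 2 peak, and in 19p13.3 there were 6 and 60.

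On chromosome 5 the peaks lay away from the chromosome ends. Only 1 of the 68, in 5q35.3, was within 5 Mb of an end, and the outermost short-arm band 5p15.33, with 10 shared replicate 1 peaks and 59 replicate 2 peaks, held 0 replicate 1-only peaks. The short arm carried 35 and the long arm 33. Besides the 5 named bands, 5q11.2 held 4, 5p13.1 and 5p13.2 held 3 each, and 5q15, 5q31.2 and 5q35.1 held 2 each. The other 8 bands, 5p14.1, 5p14.2, 5q13.2, 5q14.1, 5q22.2, 5q23.1, 5q35.2 and 5q35.3, held 1 each. The highest score on the chromosome was 113.21, in 5q31.2 (139131569 to 139133018). The median score was 58.1 (55.9 to 61.1), against 55.8 (54.9 to 57.1) for the 280 replicate 1-only peaks of the other chromosomes.

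Many of the peaks formed runs along the chromosome. A cluster was taken as at least 3 replicate 1-only peaks with no more than 1 Mb between neighbours. There were 28 clusters on 14 chromosomes, holding 133 of the 348 peaks (38.2%, 33.1 to 43.6%) in spans that add up to 31.1 Mb, 1.15% of the length. Of the 28, 13 held exactly 3 peaks and 12 held 5 or more. Chromosome 5 had 9 clusters, which took in 52 of its 68 peaks (76.5%, 64.6 to 85.9%). On the other chromosomes 81 of 280 replicate 1-only peaks (28.9%, 23.7 to 34.6%) were clustered.

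The shared peaks clustered at least as often by the same definition, 198 of 422 (46.9%, 42.1 to 51.8%). Among peaks more than 5 Mb from an end, 106 of 302 replicate 1-only peaks (35.1%, 29.7 to 40.8%) and 59 of 254 shared peaks (23.2%, 18.2 to 28.9%) were clustered. With chromosome 5 left out as well, the shares were 54 of 235 (22.98%, 17.8 to 28.9%) and 55 of 238 (23.1%, 17.9 to 29.0%). Away from the ends, the higher share of clustered replicate 1-only peaks was thus seen with chromosome 5 and not without it. These subsets were chosen after the values had been seen. Limited to the 50 replicate 1-only peaks that scored 70 or more, the clustered share was 16%.

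At short range the replicate 1-only peaks were the sparser. Another replicate 1-only peak lay within 100 kb for 67 of them (19.3%), while 107 shared peaks (25.4%) had another shared peak that near. Within 10 kb the numbers were 10 (2.87%) and 25 (5.92%). The median distance to the nearest peak of the same kind was 685.1 kb for replicate 1-only peaks and 386.8 kb for shared peaks. These values include the chromosome ends, and the shared peaks are more numerous, 422 against 348. Within 5 Mb of an end lay 39.8% of the shared and 13.2% of the replicate 1-only peaks.

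The cluster with the most peaks covered the end of 18p. Its 13 peaks ran over 3.47 Mb, from 322996 to 3796408 on chromosome 18, through 18p11.32, the band of the thymidylate synthase gene TYMS, into 18p11.31. Scores ran from 50.26 to 106.64 with a median of 60.1, and 1 of the 13 reached 70. That peak (2424931 to 2426226) was the fourth highest of all replicate 1-only peaks. The span also held 1 shared replicate 1 peak and 8 replicate 2 peaks, with replicate 2 scores up to 368.55, so the region was not empty of replicate 2 peaks. Between the 13 peaks and the nearest replicate 2 peak lay 20.7 to 423.2 kb. In 18p11.31, 2 of the peaks were broad, with widths of 2510 bp (3584074 to 3586583) and 2109 bp (3621434 to 3623542), 34.9 kb apart. A second cluster of 3 peaks lay in 18p11.22 and 18p11.21, with scores of 69.39, 60.51 and 60.53. These 2 clusters took in all 16 replicate 1-only peaks of 18p, while 0 of the 4 on 18q were clustered.

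In 5p14.3, 9 peaks lay within 823.4 kb (chromosome 5, 18914349 to 19737698). No replicate 2 peak and no shared peak lay in this span. From the first to the last along the chromosome the scores were 55.56, 77.59, 73.95, 59.89, 77.83, 65.62, 65.75, 61.13 and 75.21. The median, 65.8, was above that of all replicate 1-only peaks, and 4 of the 9 scored at least 70. The peaks were narrow, from 621 to 1110 bp, and the closest pair was 2.78 kb apart. All 9 had the same nearest replicate 2 peak, which scored 111.69 and lay 469.5 to 1292.2 kb away.

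In 5p15.2 the larger of the 2 clusters, with 7 peaks, ran from 14034912 to 14727293. Along the chromosome its scores were 81.52, 95.78, 66.27, 61.52, 86.11, 90.79 and 56.63. Of these, 4 scored at least 70, and the median of 81.5 was the highest of the 6 clusters with the most peaks. The 4 peaks between 14156054 and 14208606 followed each other at gaps of 16.8, 12.1 and 19.4 kb. The span held 4 replicate 2 peaks, with scores up to 212.13, and the replicate 1-only peaks lay 51.8 to 172.9 kb from the nearest replicate 2 peak inside or outside the span. Both lists thus had peaks in the same 692.4 kb. The rule fixes that the 7 replicate 1-only peaks overlap none of the 4 replicate 2 peaks. Of all 28 clusters, 21 had no shared replicate 1 peak in their span, this one included.

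The other large clusters scored lower. The 9 peaks of 5q21.3, the band of the tyrosine kinase gene FER, ran over 1.56 Mb (107819760 to 109376212) with a median score of 53.3 and 1 peak of at least 70. The 8 peaks of 5p14.1 and 5p13.3 ran over 2.71 Mb (28750216 to 31458509) with scores from 50.70 to 58.35. The 6 peaks of 14q12 ran over 1.73 Mb (chromosome 14, 31079814 to 32806255) with scores from 53.99 to 67.76. Each of these 3 spans held 1 replicate 2 peak, which scored 80.20, 79.02 and 88.02.

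**Figure D3:**
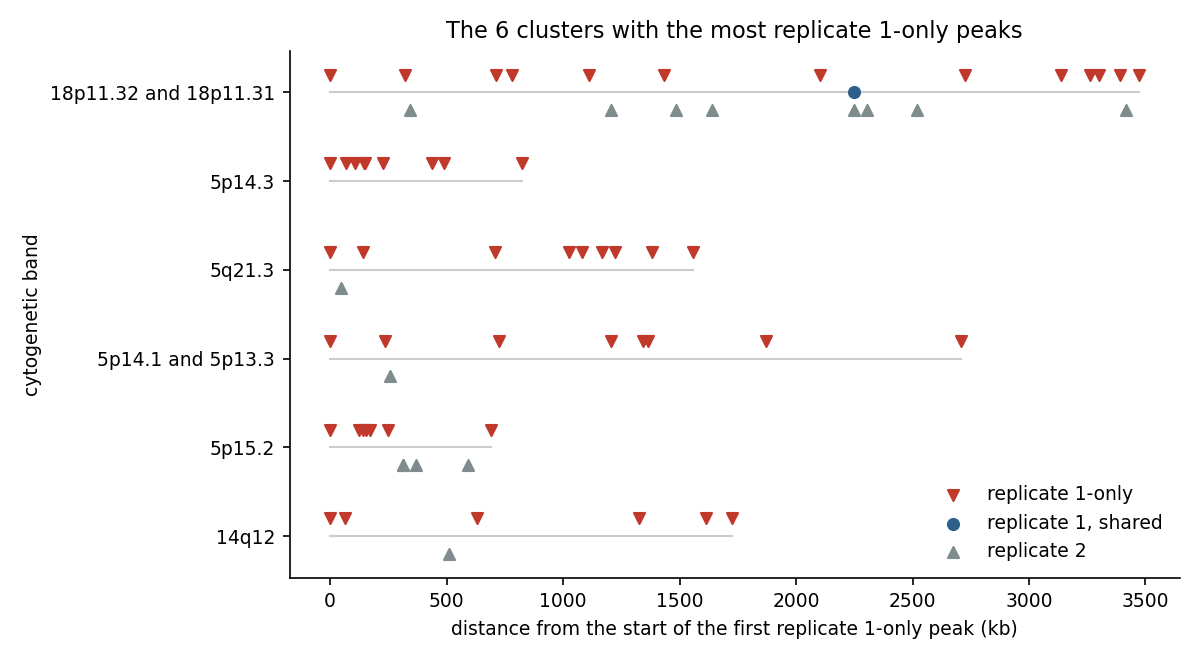
Position of peaks in the 6 clusters with the most replicate 1-only peaks, as distance in kb from the start of the cluster's first peak; in each row replicate 1-only peaks are the upper triangles, shared replicate 1 peaks the circles and replicate 2 peaks the lower triangles. The 9 peaks of 5p14.3 lie within 823.4 kb with no replicate 2 peak among them, while the span of the 13 peaks of 18p also holds 8 replicate 2 peaks.

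Over all 28 clusters the spans held 86 replicate 2 peaks, or 2.77 per Mb, against 1.56 per Mb over the 21 chromosomes. As a whole the spans were therefore not poor in replicate 2 peaks, but single clusters ranged widely. In 7 clusters, with 28 peaks, the span held 0 replicate 2 peaks, and in 5 clusters it held more replicate 2 peaks than replicate 1-only peaks. The 4 peaks of 19p13.3 had 16 replicate 2 peaks in their span and the 3 of 9q34.3 had 12. The 4 peaks of 7q31.31 and the 3 of 1q31.1 had none in the span or within 1 Mb on either side. The tightest cluster, of 3 peaks in 3p23 (chromosome 3, 31147656 to 31166933), covered 19.3 kb, with scores of 95.41, 54.94 and 51.82 and no replicate 2 peak within 1 Mb.

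Replicate 1-only peaks were narrow. Their median width was 762.5 bp (741 to 801, quartiles 645 and 981 bp), against 1021 bp for shared replicate 1 peaks (969 to 1059) and 1066 bp for replicate 2 peaks. Of the 348, 130 were under 700 bp (37.4%), as were 44 shared peaks (10.4%). Width went with score. Below a score of 60 the median width was 700 bp for 231 replicate 1-only peaks (675 to 737) and 849 bp for 117 shared peaks (774 to 904). From 60 to under 70 it was 934 bp for 67 replicate 1-only peaks (826 to 996) and 909 bp for 70 shared peaks (853 to 979). At 70 and above it was 1075.5 bp for 50 replicate 1-only peaks (939 to 1184) and 1123 bp for 235 shared peaks (1079 to 1166). The intervals of the 2 kinds were apart in the lowest class and overlapped in the upper 2. The 3 narrowest peaks were 438 bp in 4q21.1, 451 bp in 10p11.21 and 452 bp in 18q21.33.

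**Figure D4:**
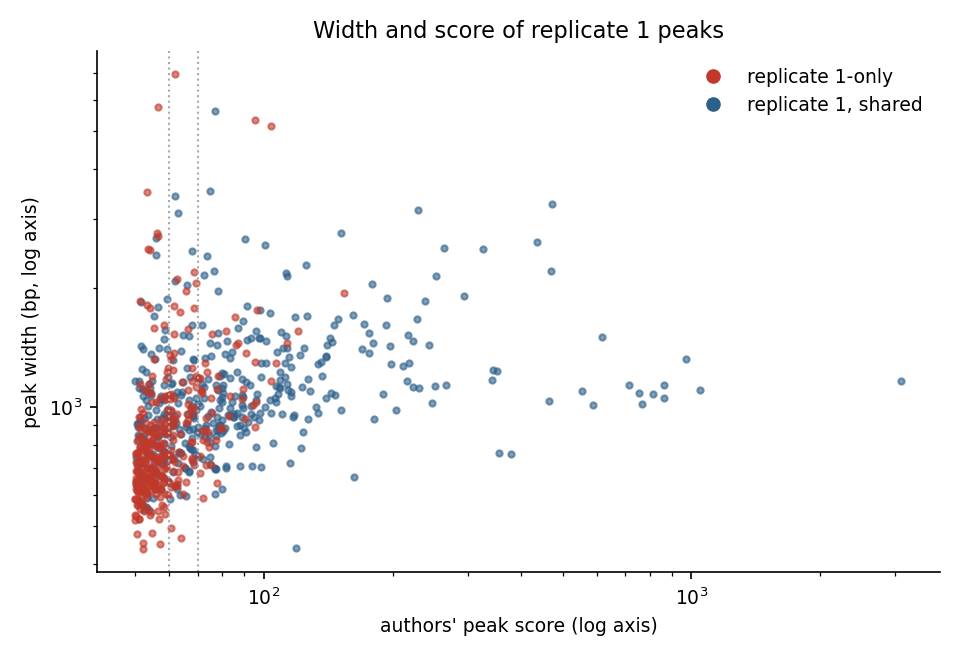
Peak width in bp against the authors' score, both on log axes, for 348 replicate 1-only peaks and 422 shared replicate 1 peaks; dotted lines mark scores of 60 and 70. Most replicate 1-only peaks lie below 70, and a few broad ones stand above 2000 bp at low scores.

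Broad peaks were few and gathered in a few bands. Of the 348, 12 were 2 kb or wider (3.45%, 1.79 to 5.95%), against 26 of the shared peaks (6.16%, 4.06 to 8.90%), and 11 of the 12 belonged to a cluster. The band 13q31.3, known for the microRNA host gene MIR17HG and the glypican gene GPC5, held 4 of them. Its 5 replicate 1-only peaks were all the replicate 1-only peaks of chromosome 13 and lay between 90949722 and 91745629. Their widths were 3502, 2718, 5746, 2500 and 1610 bp and their scores 53.26, 56.49, 56.56, 54.26 and 58.28, so they were broad at scores close to the lower limit of the list. The 3 shared peaks of the band were broad as well, at 2480, 3108 and 2035 bp, with scores of 67.90, 62.83 and 65.92.

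The band 1q21.1, a region known for segmental duplications, held 3 of the broad peaks, among them the widest of all. That peak was 6954 bp wide (chromosome 1, 145056767 to 145063720) and scored 62.07. The 5 replicate 1-only peaks of the band had a median width of 2200 bp and scores from 56.23 to 68.75, and no replicate 1 peak there was shared. The second widest peak was the 5746 bp one of 13q31.3, and the third, of 5345 bp, lay in 5p14.3 (21486894 to 21492238, score 95.18), 1.75 Mb from the cluster described for that band. The other broad peaks were 1 of 5159 bp in 1q23.3, 2 in 18p11.31 and 1 in 18p11.22.

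Replicate 1-only peaks lay farther from replicate 2 peaks than shared peaks lay from the nearest one they did not overlap. Replicate 2 peaks numbered 1.56 per Mb over the 21 chromosomes, and distances from random positions were not computed. For replicate 1-only peaks the median distance from edge to edge was 224.6 kb (157.0 to 306.6, quartiles 58.3 and 592.4 kb). Shared peaks stood a median of 49.3 kb (45.3 to 61.2) from the nearest replicate 2 peak that they did not overlap. The number of replicate 1-only peaks with a replicate 2 peak within 1 kb was 5 (1.44%), within 10 kb 19 (5.46%), within 100 kb 123 (35.3%) and within 1 Mb 299 (85.9%). The rule itself leaves out every overlapping peak and so fixes part of this pattern.

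Part of the distance went with position on the chromosome. Near the ends, 46 replicate 1-only peaks stood a median of 47.7 kb (27.5 to 92.2) from a replicate 2 peak, and 168 shared peaks 30.0 kb (24.0 to 36.3) from the next one. Farther than 5 Mb from an end the medians were 307.7 kb (223.7 to 382.9) for replicate 1-only peaks and 109.96 kb (80.3 to 130.3) for shared peaks. On chromosome 5 the median was 357.1 kb (214.3 to 512.4), and in 18p it was 105.8 kb (30.9 to 203.5).

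**Figure D5:**
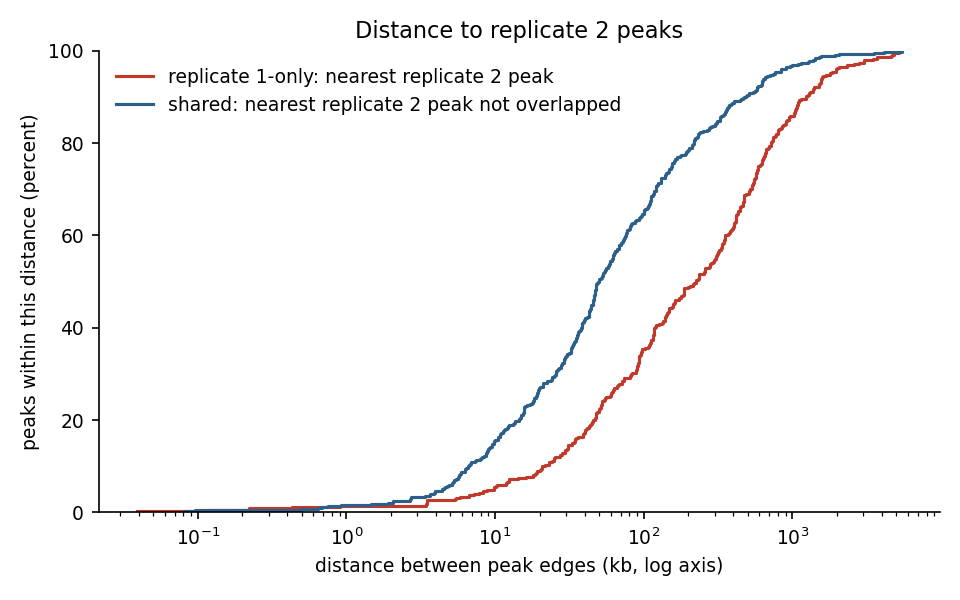
Cumulative percentage of peaks by distance in kb (log axis) between peak edges, for replicate 1-only peaks to the nearest replicate 2 peak and for shared peaks to the nearest replicate 2 peak they do not overlap. Within 100 kb are 35.3% of the replicate 1-only and 64.9% of the shared peaks.

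The 49 replicate 1-only peaks more than 1 Mb from any replicate 2 peak lay on 11 chromosomes. Of these, 17 lay in the darkest bands, 16 in clusters and 6 on chromosome 5. The farthest lay 5.30 Mb away in 14q21.3 (chromosome 14, 50685260 to 50686142, score 58.07). The next 2 were in 1q31.1, at 5.19 Mb (189323198 to 189323799, score 52.93) and 4.85 Mb (188370514 to 188371166, score 52.29), and the third peak of that cluster stood at 4.69 Mb with a score of 50.03. By score, the median distance was 282.7 kb (89.97 to 537.7) for the 50 peaks at 70 and above. It was 141.6 kb (95.6 to 223.7) for the 67 from 60 to under 70, the lowest of the 3 classes. For the 231 below 60 it was 259.1 kb (185.6 to 339.97). The 3 intervals overlapped.

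The bands that held the replicate 1-only peaks were darker and lay farther from the ends than those of the shared peaks. Of the replicate 1-only peaks 66 (18.97%, 14.98 to 23.5%) lay in the darkest Giemsa class, against 13 shared peaks (3.08%, 1.65 to 5.21%) and 183 replicate 2 peaks (4.33%), while this class makes up 15.7% of the length. The class of the lightest bands held 171 (49.1%, 43.8 to 54.5%) replicate 1-only, 306 (72.5%, 67.99 to 76.7%) shared and 2737 (64.8%) replicate 2 peaks, for 42.5% of the length. Within 5 Mb of a chromosome end lay 46 replicate 1-only peaks (13.2%, 9.84 to 17.2%), 168 shared peaks (39.8%, 35.1 to 44.7%) and 1442 replicate 2 peaks (34.1%), for 7.75% of the length. On chromosome 5, 22 of 68 replicate 1-only peaks (32.4%, 21.5 to 44.8%) were in the darkest bands, against 44 of 280 (15.7%, 11.7 to 20.5%) on the other chromosomes. Replicate 1-only peaks of the darkest bands stood a median of 548.7 kb (428.3 to 619.9) from a replicate 2 peak, and those of the lightest bands 161.2 kb (108.9 to 306.6).

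The highest-scoring replicate 1-only peaks did not share one setting. The highest, in 16q24.3 (chromosome 16, 89495194 to 89497136), scored 153.74, rank 62 of the 910 in the replicate 1 list, and lay 6.72 kb from a replicate 2 peak that scored 118.3. It belonged to a cluster of 4 whose other scores were 60.79, 55.82 and 54.01, in a gene-dense band at the chromosome end. The second, in the dark band 3p24.3 (chromosome 3, 18079745 to 18081302), scored 120.16 and lay 1.53 Mb from any replicate 2 peak, outside any cluster. The third was the 5q31.2 peak at 113.21, 89.97 kb from a replicate 2 peak, and the fourth the 18p11.32 peak at 106.64, 144.3 kb away. The fifth was the broad 1q23.3 peak (chromosome 1, 161412597 to 161417755), at 104.10 and 1.03 Mb away. The 5 peaks had widths from 1296 to 5159 bp, all above the median of the replicate 1-only peaks.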

How the data were processed

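ChIP-seq peak lists of 2 K562 samples, 1 per antibody batch, were used. Per the submitters' processing notes the authors used BWA and MACS, and the notes name hg19 and GRCh38; their versions and settings, and the control library, were not given in the sources used here. Each sample has 1 list, in which the authors deposited a peak score, read from its form as a scaled negative log10 of the p-value. Such a score moves with depth, which is unknown, so scores were ranked within a list only; those of the 2 lists are set side by side as a description. No peak ends beyond its hg19 chromosome (0 in each list).

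Overlaps of 1 bp, edge distances, clusters and bands were computed with Python 3.11.15, numpy 2.4.6, pandas 2.3.3 and scipy 1.17.1; figures with matplotlib 3.10.9. Bands came from circlize 0.4.16 and chromosome lengths from GenomeInfoDb 1.38.1. Shares have Clopper-Pearson intervals and medians order-statistic intervals. The procedures were checked on simulated lists. No test was run, since there is 1 sample per batch.

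Named regions are the 10 fullest bands, all bands of chromosome 5 and 18p, the 6 fullest clusters, the 5 highest scores, and the 3 widest, narrowest, nearest and farthest peaks; the other clusters and bands named were chosen after their values were seen. The peaks, bands and lists were chosen with earlier results of these data known. Genes are named as background for a band.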

Additional observations from a re-analysis of the deposited data

Results flagged for a closer look

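Outside the 21 chromosomes described, chromosome 6 held 86 replicate 1-only peaks of 120 replicate 1 peaks, above the limit of 3 counts that was set for data left out of the description. Their scores ran from 50.22 to 186.47 with a median of 60.4. Chromosome X held 3 and chromosome Y 2, not above that limit.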

How the results depend on the processing

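Of 70 values recomputed for 9 results, 52 stayed within the result's 95% interval (for counts, within 1.5 times) and 18 moved. The values describe the replicate 1-only peaks alone, so no direction of a comparison was recomputed. With replicate 1 scores of at least 60 there were 117 replicate 1-only peaks, 10 in 18p, 23.1% clustered, with a median width of 981 bp, distance of 148.7 kb and score of 67.8. With scores of at least 70 there were 50, of which 28% lay on chromosome 5, 1 in 18p and 16% in clusters, with a median width of 1075.5 bp and score of 77.98. With replicate 2 limited to scores of at least 100 the median distance was 348.9 kb. The clustered share was 27.0% with a gap of 500 kb, 47.1% with 2 Mb, 23.6% with at least 5 peaks and, in a setting added after seeing the data, 28.9% without chromosome 5. Also added after seeing the data, the median distance away from chromosome ends was 307.7 kb. Higher score limits leave fewer peaks to form clusters, while a shorter gap makes the definition stricter for the same peaks. Counting replicate 2 peaks within 1 or 10 kb as shared, or asking for 50% overlap, moved no result. Without either replicate the rule cannot be applied, so no value exists. No paired analysis was possible because the samples form a single group. With unknown depth, a site without a replicate 2 peak was not detectable there at a score of 70, which does not show that it lacks ASH1.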
